A study of Homo sapiens with 2 samples.

Results

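The genes described are 10 markers of intestinal stem cells and targets of WNT signalling: LGR5, ASCL2, OLFM4, SMOC2, EPHB2, SOX9, AXIN2, RNF43, ZNRF3 and LRIG1. They were found by symbol among the 36601 genes listed for 2 single-cell RNA libraries of colon organoids, and all 10 were present once. The organoids were differentiated from 1383D6, a human induced pluripotent stem cell line, so both libraries stand for a single line. Both were made with activin A (100 ng/mL) and then FGF2 (100 ng/mL), embedded in a basement membrane gel, and given EGF (20 ng/mL), forskolin (30 µM, raises cyclic AMP), PD98059 (20 µM, a MEK inhibitor), 5-aza-2'-deoxycytidine (5 µM, blocks DNA methylation) and an agent whose name the label breaks off after A-83. One library, CNT, came from organoids without the cytokine mix. The other, 3CK, is taken here from the treatment protocol to be organoids given IL-1β, TNF-α and IFN-γ together, over 8 days. The labels read here name the 3 cytokines without their concentrations.

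In the gut, stem cells at the crypt base divide under WNT ligands, made in part by the mesenchyme beneath them. WNT binding stabilises beta-catenin, which enters the nucleus with TCF/LEF factors and switches on target genes. Those targets include a transcription factor that keeps stem cells as they are (ASCL2), receptors (LGR5, EPHB2), and brakes on the pathway itself (AXIN2, RNF43, ZNRF3). Stromal cells use many of the same genes, so a marker of the crypt base is not confined to epithelium.

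After filtering, 2487 CNT cells held 101831571 UMIs (unique molecular identifiers, each counting 1 captured transcript) and 1398 3CK cells held 91860414. No cell barcode was shared. Epithelial cells were those with at least 2 EPCAM UMIs per 10000, and numbered 1660 in CNT and 1016 in 3CK. Mesenchymal cells had at least 5 collagen UMIs (COL1A1, COL1A2 and COL3A1 summed) per 10000 and under 1 of EPCAM, and numbered 574 and 124. A further 253 and 258 cells met neither rule. The median 3CK cell was deeper, at 72198 against 37785 UMIs in epithelium and 65363 against 23450.5 in mesenchyme. Levels are therefore UMIs summed over the cells of a class and divided by the UMI total of that class (CPM, counts per 1000000), and shares of cells were taken at equal depth. With 1 library per condition nothing here has a replicate check: intervals are 95% and cover counting error only, and no p-value is given. Only a difference between these 2 libraries can be read, and culture, dissociation and capture cannot be told apart from treatment.

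The classes fitted their defining markers only in part. In epithelium EPCAM stood at 1097 CPM in CNT and 958.7 in 3CK and the hindgut factor CDX2 at 80.6 and 83.3. The goblet mucin MUC2 stood at 1.04 and 0.642 CPM and the Paneth defensin DEFA5 at 0 UMIs in both libraries. The 5 goblet genes listed summed to 1345 and 765 CPM, nearly all from ZG16 (1338 and 761 CPM). The 5 enterocyte genes listed summed to 1409 CPM in CNT and 194 in 3CK. Hepatic transcripts were abundant, with TTR at 64857 CPM in CNT epithelium and 19491 in 3CK. Collagen also reached the mesenchymal minimum in 497 CNT and 49 3CK cells of the epithelial class. The keratins KRT8 and KRT18 were present in mesenchyme at 103% and 115% of their epithelial level in CNT and 56.5% and 63.7% in 3CK. EPCAM was held low in mesenchyme by the class rule (1.80% in 3CK). Cells within 2-fold above the class minimum numbered 168 and 150 in epithelium and 53 and 38 in mesenchyme.

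Of the 10 genes, 5 had a promoter window in the RefSeq table for GRCh38.p14: OLFM4, SMOC2, EPHB2, RNF43 and LRIG1. Stretches upstream of the gene start are printed for 3 of them, chosen because their levels differed between classes or libraries in different ways. RNF43 was scarce in mesenchyme, LRIG1 was higher in 3CK mesenchyme, and SMOC2 was lower in 3CK mesenchyme. They are written 5′ to 3′ on the gene's strand, with no capitals since no searched motif was found in them. RNF43 lies at chr17:58417596-58417784 (minus strand, 189 bases), LRIG1 at chr3:66501264-66501371 (minus strand, 108 bases) and SMOC2 at chr6:168440934-168441150 (plus strand, 217 bases).
RNF43: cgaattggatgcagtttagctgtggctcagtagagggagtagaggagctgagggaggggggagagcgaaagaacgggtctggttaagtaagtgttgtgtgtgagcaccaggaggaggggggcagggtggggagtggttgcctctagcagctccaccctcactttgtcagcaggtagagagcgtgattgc
LRIG1: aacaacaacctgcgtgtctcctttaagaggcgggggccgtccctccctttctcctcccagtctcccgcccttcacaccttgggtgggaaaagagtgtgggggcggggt
SMOC2: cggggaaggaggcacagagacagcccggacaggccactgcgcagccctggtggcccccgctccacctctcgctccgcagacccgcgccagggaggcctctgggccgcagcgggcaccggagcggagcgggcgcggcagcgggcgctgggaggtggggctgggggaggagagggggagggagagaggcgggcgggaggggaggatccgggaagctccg
In the 250 bases before each RefSeq start of the 5 genes (10 windows), neither strand held the TCF/LEF core CTTTGA, the interferon-gamma-activated site TTCNNNGAA or the interferon-stimulated response element (GAAA, any 2 bases, GAAA). Of 35116 windows of that length over all genes, 11.2%, 6.57% and 3.02% held these motifs. The absence says only that these letters are not in these windows.

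Of the 10 genes, ASCL2 differed most between the libraries, and it was higher in 3CK in every class of cells. ASCL2 encodes a basic helix-loop-helix transcription factor of crypt stem cells, a direct WNT target (ENSG00000183734, GRCh38 chr11:2268498-2270588, minus strand). In epithelial cells 39 UMIs were counted in CNT and 847 in 3CK, which is 0.512 CPM (0.364 to 0.700) against 12.1 CPM (11.3 to 12.9). The ratio was 23.6-fold, or 4.56 on the log2 scale (4.10 to 5.06). In mesenchymal cells 5 UMIs in CNT and 82 in 3CK gave 0.254 CPM (0.0826 to 0.594) and 8.995 CPM (7.15 to 11.2), a log2 ratio of 5.14 (3.86 to 6.80). Cells of neither class went the same way, with 5 and 142 UMIs, or 0.832 and 11.2 CPM (log2 ratio 3.76). All kept cells together stood at 0.481 CPM (CNT) and 11.7 CPM (3CK). The Poisson intervals of the libraries were apart in each class. Among 3CK classes, epithelium (12.1 CPM) and neither class (11.2 CPM) had overlapping intervals, and the mesenchymal interval ended just below the epithelial one.

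**Figure D1:**
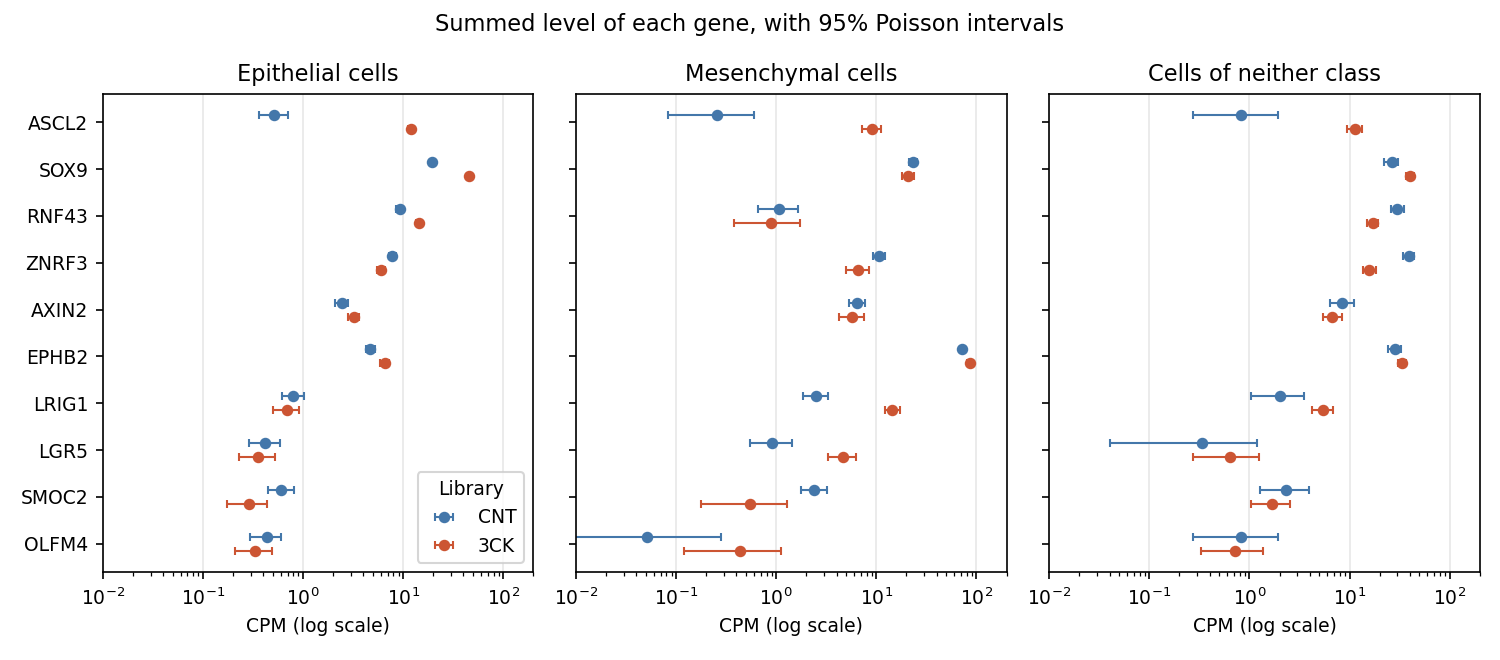
Summed level of each gene (x axis, CPM on a log scale) in epithelial cells, mesenchymal cells and cells of neither class, for CNT (blue) and 3CK (red). Bars are 95% Poisson intervals of the UMI sum, and where none is seen they are narrower than the point. ASCL2 is near 12.1, 8.995 and 11.2 CPM in 3CK and under 1 CPM in CNT in every panel, while the other 9 genes lie closer together.

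Such a ratio was uncommon among all genes but not unmatched. Of the 16809 genes that reached 1 CPM in the epithelium of CNT or 3CK, 111 (0.660%) had a 3CK to CNT ratio as large as that of ASCL2, and in mesenchyme 41 of 17353 (0.236%) did. Giving each cell equal weight left the epithelial log2 ratio at 4.56, but took the mesenchymal one to 1.59 and that over all kept cells to 3.55. Keeping only mesenchymal cells without any EPCAM UMI (376 CNT, 49 3CK) left it at 4.97, and keeping only those with at least 20 collagen UMIs per 10000 gave 5.99.

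The mesenchymal ASCL2 signal stood at a ratio of 0.745 to the epithelial level in 3CK. The listed epithelial markers ranged widely by the same measure, as a percent of the 3CK epithelial level: CLDN4 stood at 2.21% and CDH1 at 3.01%, but KRT19 at 30.3%, CDX2 at 42.8%, KRT8 at 56.5% and KRT18 at 63.7%. In CNT KRT8 stood at 103% and KRT18 at 115%, so these keratins do not mark epithelium here. EPCAM, at 1.80% in 3CK, shows nothing here, since the class rule caps it. The hepatic transcript TTR stood at 1.22%. PIGR, the antibody transporter of mucosal epithelium, and LCN2, a secreted iron-siderophore binder, were chosen after their values were seen. Both were higher in 3CK epithelium (PIGR 0.263 against 112 CPM, LCN2 15.1 against 702 CPM) and stood at 2.54% and 5.36% in 3CK mesenchyme. The part of epithelial RNA in the mesenchymal ASCL2 value was not tested. Leukocyte markers also differed between the mesenchymes: the 6 listed genes summed to 54.9 CPM in CNT and 183 in 3CK there, with PTPRC at 0.560 and 3.62 CPM, TYROBP at 27.1 and 87.9, and CD3E and CD79A at or near 0. In epithelium the sum was 45.3 and 63.7 CPM. Their part in the mesenchymal values was not tested.

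ASCL2 was spread over many 3CK epithelial cells at low counts rather than held by a few. After thinning each cell to 5000 UMIs, 2 of 1062 CNT epithelial cells (0.188%, 0.0228 to 0.679, Clopper-Pearson) had an ASCL2 UMI, against 32 of 776 3CK ones (4.12%, 2.84 to 5.77). Thinning to 20000 UMIs gave 7 of 948 (0.738%) and 114 of 689 (16.5%, 13.8 to 19.5), and without thinning the counts were 24 of 1660 (1.45%) and 297 of 1016 (29.2%). The thinned cells leave out 712 shallower CNT and 327 shallower 3CK epithelial cells at 20000 UMIs. Of the 114 positive cells, 86 had a single UMI, 22 had 2, and only 2 had 4 or more. Before thinning the highest cell held 18 UMIs, 52 cells held at least 5, and the 10 highest cells held 128 of the 847 UMIs (15.1%).

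Mesenchymal shares followed at the larger depth. At 5000 UMIs no CNT mesenchymal cell of 320 had an ASCL2 UMI, which allows a share of up to 0.938% by 3 counts and 1.15% by the Clopper-Pearson interval, against 2 of 107 in 3CK (1.87%, 0.227 to 6.59), a difference not detectable at this depth. At 20000 UMIs the shares were 3 of 300 (1.00%, 0.207 to 2.89) and 15 of 103 (14.6%, 8.39 to 22.9). The unthinned shares were 5 of 574 (0.871%) and 26 of 124 (20.97%). The UMIs were less evenly spread than in epithelium, with 63 of 82 in the 10 highest cells. RNF43, a gene that was nearly absent from mesenchyme, serves as the background there: at 20000 UMIs 0.667% of CNT and 2.91% of 3CK mesenchymal cells had an RNF43 UMI, against 16.6% and 24.1% of epithelial cells.

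**Figure D2:**
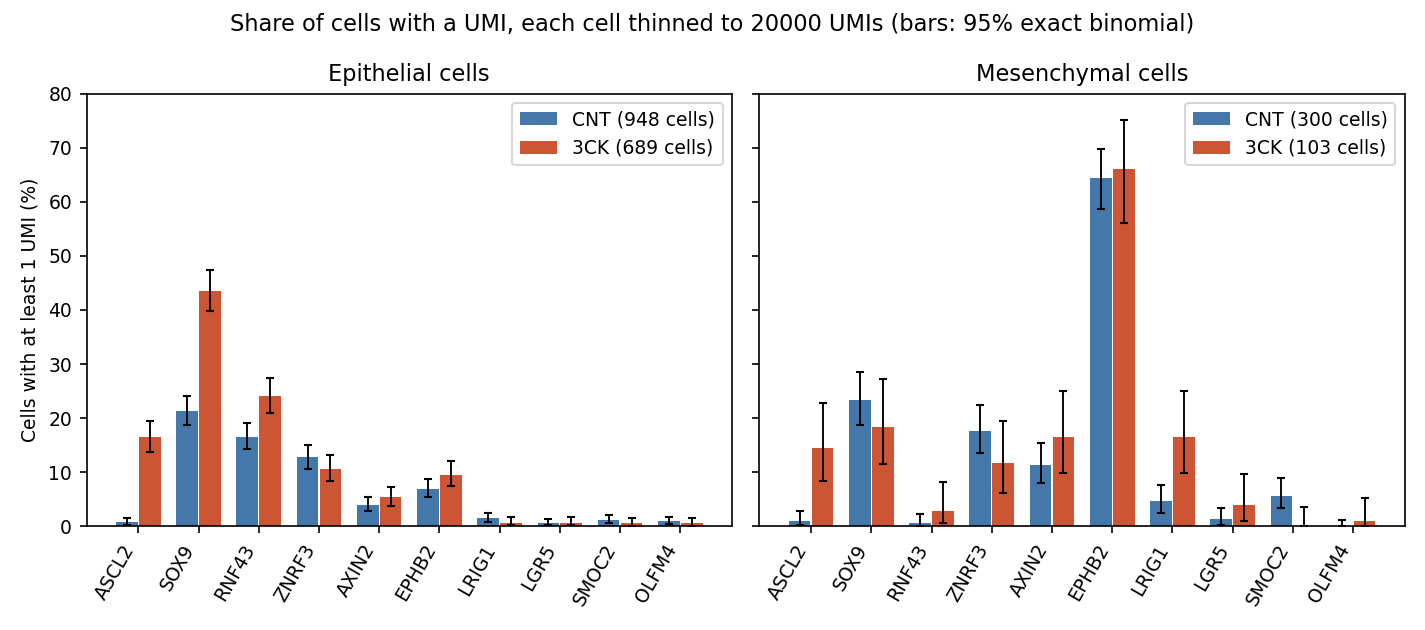
Percent of cells with at least 1 UMI of each gene (y axis) after each cell was thinned to 20000 UMIs, in epithelial (left) and mesenchymal cells (right) of CNT (blue) and 3CK (red). Bars show exact binomial 95% intervals over cells of 1 library each. ASCL2 goes from 0.738% to 16.5% in epithelium and from 1.00% to 14.6% in mesenchyme, SOX9 from 21.3% to 43.5% in epithelium, and EPHB2 is found in 64.3% and 66.0% of mesenchymal cells.

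SOX9 shared the direction of ASCL2 in epithelium at a much smaller size, and not in mesenchyme. SOX9 is an HMG-box transcription factor of crypt progenitors and of cartilage and other stromal lineages (chr17:72121020-72126416). In epithelium CNT had 1483 UMIs and 3CK had 3203, which make 19.5 CPM (18.5 to 20.5) and 45.7 CPM (44.1 to 47.3). That is 2.35-fold, or 1.23 on the log2 scale (1.14 to 1.32). The share of epithelial cells with a UMI was 21.3% (18.7 to 24.1) and 43.5% (39.8 to 47.3) at 20000 UMIs. In mesenchyme 457 and 190 UMIs gave 23.3 and 20.8 CPM, with a log2 ratio of -0.16 whose interval held 0 (-0.41 to 0.09). That mesenchymal sign was not stable: it was 0.02 with TMM scaling, 0.25 with equal weight per cell and 0.58 in cells without EPCAM UMIs. With equal weight per cell the epithelial log2 ratio was 0.76, below 2-fold.

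The surface E3 ligases RNF43 and ZNRF3 differed in opposite directions in epithelium. Both remove Frizzled receptors from the membrane and are switched on by WNT signalling, as a brake. RNF43 (chr17:58353676-58417595, minus strand) had 702 CNT and 1005 3CK epithelial UMIs, making 9.22 CPM (8.55 to 9.92) and 14.3 CPM (13.5 to 15.2), a log2 ratio of 0.64 (0.50 to 0.78) that was 0.13 with equal weight per cell. ZNRF3 (chr22:28883572-29057488) had 591 and 424, or 7.76 CPM (7.15 to 8.41) and 6.05 CPM (5.49 to 6.65), a log2 ratio of -0.36 (-0.54 to -0.18). ZNRF3 was also lower in 3CK mesenchyme, at 10.6 and 6.58 CPM (log2 ratio -0.69, -1.13 to -0.27), and at -1.42 with at least 20 collagen UMIs per 10000. RNF43 was near 1 CPM in mesenchyme (21 and 8 UMIs), and its ratio there was not resolved at this depth. Cells of neither class had less of both in 3CK, with RNF43 at 30.1 and 17.0 CPM (log2 ratio -0.82) and ZNRF3 at 39.1 and 15.8 CPM (-1.30).

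AXIN2 and EPHB2 were slightly higher in 3CK epithelium, by amounts that depended on how cells were weighted. AXIN2 is a scaffold of the complex that destroys beta-catenin and is widely read as a reporter of WNT activity (chr17:65528563-65561648, minus strand). It was counted 186 times in CNT and 224 times in 3CK epithelium, giving 2.44 CPM (2.10 to 2.82) and 3.20 CPM (2.79 to 3.64), a log2 ratio of 0.39 (0.10 to 0.68). EPHB2, a receptor for ephrin-B ligands that positions cells along the crypt (chr1:22710839-22921500), had 359 and 457 UMIs, or 4.71 CPM (4.24 to 5.23) and 6.52 CPM (5.93 to 7.14), a log2 ratio of 0.47 (0.27 to 0.67). With equal weight per cell both signs turned, to -0.20 for AXIN2 and -0.35 for EPHB2. EPHB2 reached 1.04 when epithelial cells with collagen UMIs at or above the minimum were left out.

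EPHB2 was chiefly a mesenchymal transcript in these organoids. In CNT its mesenchymal level was 15.4 times the epithelial one (72.4 against 4.71 CPM), and in 3CK 13.3 times (86.9 against 6.52). Its mesenchymal intervals were apart between libraries (68.7 to 76.2 and 80.9 to 93.1), with a log2 ratio of 0.26 (0.14 to 0.39) that became -0.04 in cells without EPCAM UMIs and 1.03 with equal weight per cell. AXIN2 was also higher in mesenchyme than in epithelium in both libraries, at 6.46 and 5.70 CPM, with a log2 ratio between libraries of -0.18 (-0.67 to 0.30), or -0.82 in cells without EPCAM UMIs.

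LRIG1 was higher in 3CK mesenchyme and did not differ beyond counting error in epithelium. LRIG1 is a membrane protein that damps EGF receptor signalling and marks a stem cell pool of the crypt (chr3:66378797-66501263, minus strand). In CNT mesenchyme 49 UMIs made 2.49 CPM (1.84 to 3.30), and in 3CK 132 UMIs made 14.5 CPM (12.1 to 17.2), a ratio of 5.81-fold or 2.54 on the log2 scale (2.05 to 3.04). In epithelium 61 and 48 UMIs gave 0.801 and 0.685 CPM, and the interval of the ratio held 0 (log2 -0.23, -0.80 to 0.34, or -1.52 with equal weight per cell). The 10 highest 3CK mesenchymal cells held 87 of the 132 UMIs, with 28 in 1 cell, and 17 of 103 cells thinned to 20000 UMIs (16.5%, 9.92 to 25.1) had a UMI against 14 of 300 in CNT (4.67%, 2.57 to 7.71). The mesenchymal log2 ratio was between 1.73 and 3.49 over 11 alternative settings. Cells of neither class also had more, at 2.00 and 5.46 CPM (log2 ratio 1.45, 0.56 to 2.47).

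The defining crypt-base marker LGR5 stayed scarce in both libraries. LGR5 is a receptor for R-spondins, which strengthen WNT signals (chr12:71439798-71586310). Only 32 epithelial UMIs in CNT (in 9 cells, 14 UMIs in 1 cell) and 25 in 3CK (in 12 cells) were counted, or 0.420 CPM (0.287 to 0.593) and 0.357 CPM (0.231 to 0.526). The log2 ratio of -0.24 had an interval from -1.05 to 0.56, and was 0.80 with an EPCAM minimum of 5 per 10000. In mesenchyme 18 and 42 UMIs gave 0.916 and 4.61 CPM (log2 ratio 2.33), but the 42 UMIs came from 7 cells and 24 of them from 1 cell. In mesenchymal cells without EPCAM UMIs the LGR5 ratio was -0.99. Nothing can be said of LGR5 in mesenchyme beyond those cells.

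Secreted SMOC2 and OLFM4 did not accompany ASCL2. SMOC2 is a matrix-associated calcium-binding protein of the crypt base and of fibroblasts (chr6:168441151-168673445). Epithelial UMIs were 46 in CNT and 20 in 3CK, giving 0.604 CPM (0.442 to 0.806) and 0.285 CPM (0.174 to 0.441), a log2 ratio of -1.08 (-1.92 to -0.30). In mesenchyme 47 and 5 UMIs gave 2.39 CPM (1.76 to 3.18) and 0.548 CPM (0.178 to 1.28), a log2 ratio of -2.12 (-3.81 to -0.80). OLFM4, a secreted glycoprotein of human crypt stem cells that is also known as an inflammation-responsive gene (chr13:53028813-53052057), had 33 and 23 epithelial UMIs. These are 0.433 CPM (0.298 to 0.608) and 0.328 CPM (0.208 to 0.492), with overlapping intervals and a log2 ratio of -0.40 (-1.24 to 0.41). Its mesenchymal UMIs were 1 and 4, all 4 in 1 cell.

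**Figure D3:**
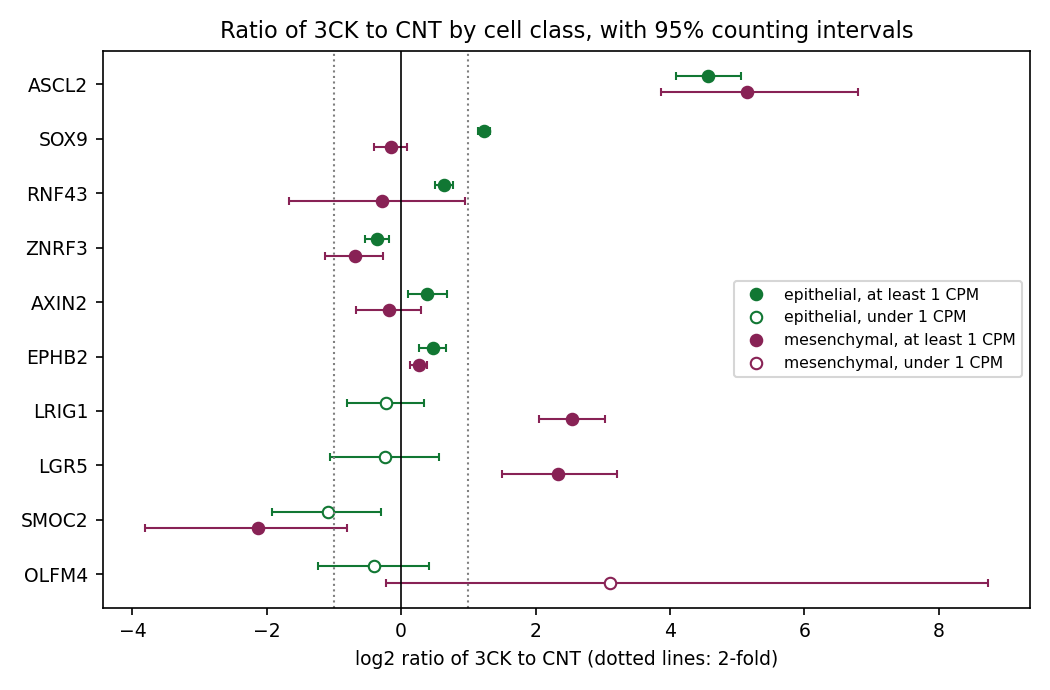
Ratio of 3CK to CNT (x axis, log2 of the CPM ratio) for each gene in epithelial (green) and mesenchymal cells (purple), with 95% counting intervals and open points for genes under 1 CPM in both libraries. ASCL2 is beyond 4 in both classes, SOX9 passes 2-fold in epithelium and LRIG1 and LGR5 in mesenchyme, and SMOC2 is on the other side of 0 in both. The mesenchymal LGR5 point rests on 42 UMIs from 7 3CK cells, 24 of them in 1 cell, so its interval is too narrow.

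At equal depth the shares of cells told little more for the genes with few UMIs. At 20000 UMIs AXIN2 was in 4.01% of CNT and 5.37% of 3CK epithelial cells, EPHB2 in 6.96% and 9.58%, and ZNRF3 in 12.8% and 10.6%, with overlapping intervals for each. LGR5 (0.633% and 0.726%), OLFM4 (0.949% and 0.581%), SMOC2 (1.27% and 0.581%) and LRIG1 (1.48% and 0.726%) were each in under 15 cells of either library. In mesenchyme ZNRF3 was in 17.7% and 11.7% of cells, and SMOC2 in 17 of 300 (5.67%, 3.34 to 8.92) for CNT. For 3CK it was in 0 of 103, which allows a share of up to 2.91% by 3 counts and 3.52% by the Clopper-Pearson interval. These 2 intervals overlap. The AXIN2 share (11.3% and 16.5%) went against its CPM there, so no order is read from it.

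SOX9 was higher in 3CK in cells of neither class, as in epithelium. It stood at 26.3 CPM (22.3 to 30.7) in CNT and 40.1 CPM (36.7 to 43.8) in 3CK. The log2 ratio of 0.61 (0.35 to 0.88) was below the epithelial 1.23 (1.14 to 1.32). The CNT interval overlapped that of CNT mesenchyme (21.2 to 25.5) and lay above that of CNT epithelium (18.5 to 20.5). In cells of neither class the EPHB2 (28.5 and 33.6 CPM) and AXIN2 (8.49 and 6.73 CPM) ratios had intervals that held 0. These cells were not one type across the libraries: the placental hormone subunit CGA stood at 618 CPM there in CNT and 1.74 in 3CK, and its part in the values was not tested.

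Counted together, none of the other genes had an epithelial difference as large as that of ASCL2, and their directions were mixed. Of the 10 genes, 6 reached 1 CPM in either library's epithelium. Of these, 2 (ASCL2 and SOX9) were at least 2-fold higher in 3CK, where 8.48% of all genes tested were, and 0 were at least 2-fold lower, where 12.1% were. Leaving out epithelial cells with collagen UMIs at or above the mesenchymal minimum took EPHB2 past 2-fold as well, to a log2 ratio of 1.04. The intervals of 5 of the 6 lay above 0 and that of ZNRF3 below, but with equal weight per cell AXIN2 and EPHB2 were below 0 as well. Their median log2 ratio was 0.55, or 0.47 without ASCL2, beside 0.01 over all genes (quartiles -0.45 and 0.38). The 4 genes under 1 CPM all had log2 ratios below 0. Summed over the 9 genes other than ASCL2, the epithelial level was 45.9 CPM in CNT and 77.4 in 3CK, of which SOX9 gave 19.5 and 45.7.

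In mesenchyme 9 of the 10 reached 1 CPM, and 3 of the 9 (ASCL2, LRIG1 and LGR5) were at least 2-fold higher in 3CK and 1 (SMOC2) at least 2-fold lower. The background was 6.05% higher and 16.7% lower of 17353 genes. The 3CK value of LGR5 rests on 7 cells, with 24 of its 42 UMIs in 1 cell, so nothing is read from its place in this count. The median of the 9 was -0.16, beside -0.21 over all genes. Among cells of neither class 8 reached 1 CPM, with ASCL2 and LRIG1 at least 2-fold higher (background 9.18%) and ZNRF3 at least 2-fold lower (background 19.7%), and a median of -0.05 beside -0.22 over all genes. Over all kept cells 3 of 8 were at least 2-fold higher (ASCL2, SOX9, LRIG1) and 1 lower (SMOC2), against 6.96% and 11.3% of all genes. That count of SMOC2 was lost under 3 other settings, where its level or ratio fell short of a threshold. The LRIG1 ratio over all kept cells was 0.77 without cycling cells and 0.29 with equal weight per cell. Only ASCL2 passed 2-fold in every class.

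The makeup of the epithelium differed between the libraries, so the genes were also read within ranges of TTR, leaving out cycling and endocrine cells. These ranges cut a continuous level and are not cell types. Cells with at least 200 TTR UMIs per 10000 held 79.1% of epithelial UMIs in CNT and 35.0% in 3CK, those with 20 to 200 held 13.7% and 49.3%, and those under 20 held 4.07% and 12.0%. TTR itself was lower in 3CK, so the same range need not hold the same cells in both.

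Within every TTR range ASCL2 was higher in 3CK. At high TTR the levels were 0.415 CPM (0.268 to 0.612) in CNT and 9.74 CPM (8.54 to 11.1) in 3CK. At intermediate TTR they were 0.287 CPM (0.0592 to 0.839) and 12.1 CPM (10.9 to 13.3). At low TTR they were 3.23 CPM (1.55 to 5.94) and 17.9 CPM (15.2 to 21.04). The log2 ratios were 4.55, 5.39 and 2.47, the last with an interval of 1.55 to 3.56. In 3CK the level was lowest at high TTR and highest at low TTR, with intervals of the outer ranges apart. In CNT it was also higher at low than at high TTR with intervals apart, on 10 UMIs at low TTR. In the cycling range 1 UMI in CNT and 40 in 3CK gave 0.465 and 16.2 CPM, from 102 and 51 mostly shallow cells. Of the endocrine range, 15 and 6 cells, no ASCL2 UMI was counted.

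SOX9 and RNF43 differed in some ranges, and ZNRF3 in all 3. SOX9 was higher in 3CK at high TTR (16.0 and 32.8 CPM, log2 ratio 1.04) and at intermediate TTR (27.6 and 52.7 CPM, 0.93), but not at low TTR, where both libraries stood at 53.6 and 54.2 CPM (0.01, -0.24 to 0.28). RNF43 differed at high TTR (7.02 and 9.41 CPM, log2 ratio 0.42), while the intermediate (15.51 and 15.55 CPM) and low ranges (25.5 and 25.3 CPM) had log2 ratios of 0.00 and -0.01 with intervals on both sides of 0. AXIN2 and EPHB2 had intervals that held 0 in all 3 ranges. ZNRF3 was lower in 3CK in each: 5.77 and 3.79 CPM at high TTR, 10.8 and 6.11 at intermediate TTR, and 24.9 and 9.62 at low TTR (log2 ratios -0.61, -0.82 and -1.37). SOX9, RNF43, ZNRF3, AXIN2, EPHB2 and LRIG1 were all higher at low than at high TTR in both libraries.

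**Figure D4:**
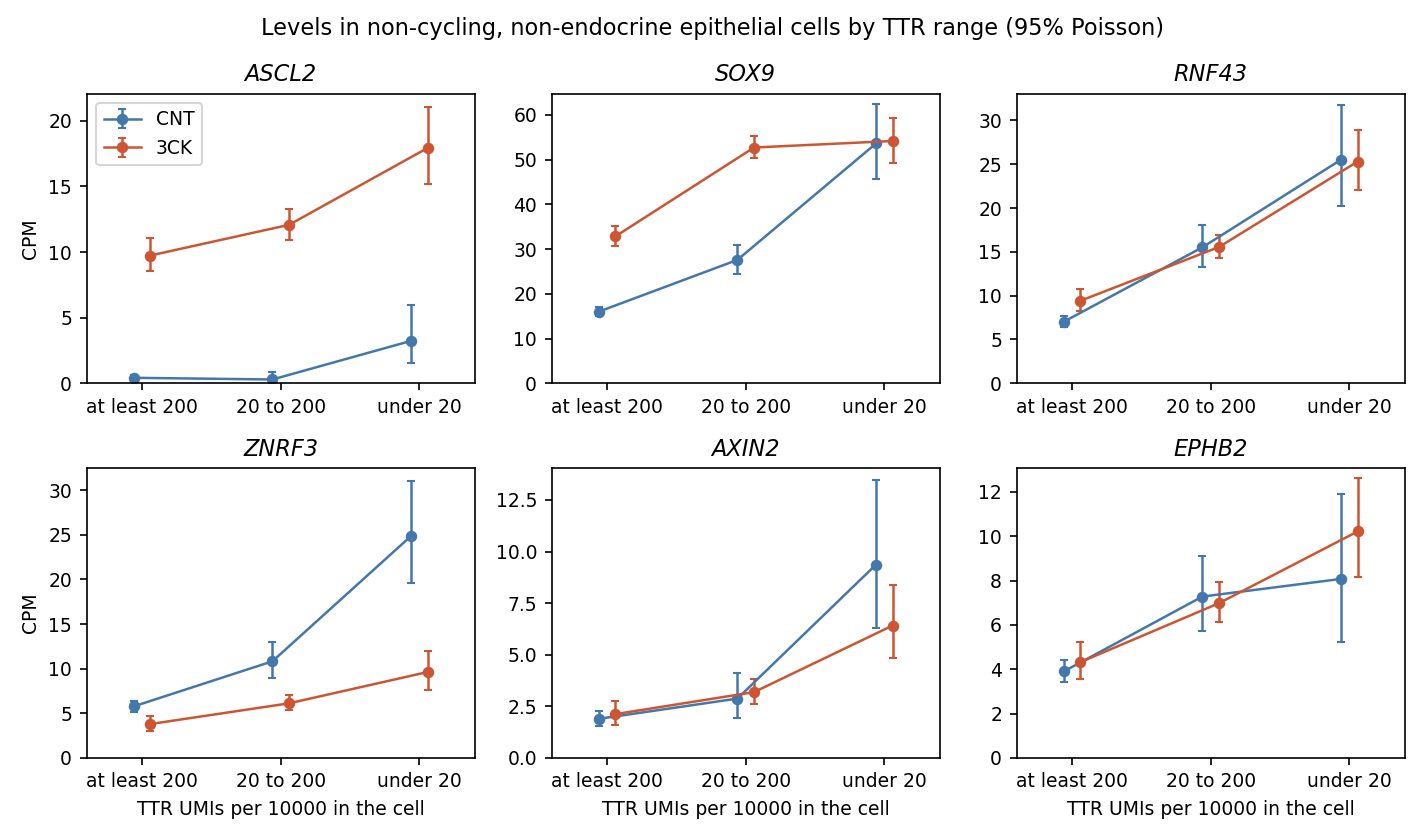
Level (y axis, CPM, linear, a separate scale per panel) of 6 genes in non-cycling, non-endocrine epithelial cells grouped by TTR UMIs per 10000 (x axis), in CNT (blue) and 3CK (red), with 95% Poisson intervals. ASCL2 is higher in 3CK in each range, SOX9 meets at 53.6 and 54.2 CPM at low TTR, and ZNRF3 is lower in 3CK throughout. RNF43 nearly overlaps at intermediate and low TTR and is higher in 3CK at high TTR (7.02 and 9.41 CPM).

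When the 5 epithelial ranges of 3CK were weighted by their CNT share of UMIs, an alternative chosen after seeing the data, ASCL2 stayed at a log2 ratio of 4.36 (20.6-fold) and SOX9 stood at 0.92 (1.90-fold). RNF43 came to 0.24, EPHB2 to 0.12 and AXIN2 to 0.01. ZNRF3 was at -0.72, LRIG1 at -0.87 and SMOC2 at -2.14. The part of cell makeup in these differences was not tested beyond this weighting.

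LGR5 had its highest epithelial level in CNT cells with low TTR, with 18 of its 32 UMIs and 5.81 CPM (3.45 to 9.19) there. Of those 18 UMIs 14 were in 1 cell, so the level rests on that cell and its counting interval is too narrow. In 3CK the same range held 3 UMIs, or 0.356 CPM (0.0735 to 1.04), and no ratio is read from it. That range held 41 CNT and 113 3CK cells. In mesenchyme the ASCL2 levels of 3CK were 12.6 CPM (8.31 to 18.3) in cycling and 7.89 CPM (5.94 to 10.3) in other cells, with overlapping intervals. LRIG1 stood at 29.9 CPM (23.0 to 38.2) in 23 cycling 3CK cells and 9.75 CPM (7.57 to 12.4) in the others, against 2.61 and 2.47 CPM in CNT. Cycling transcripts themselves summed to 234 CPM in CNT mesenchyme and 347 in 3CK.

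Cells with ASCL2 did not hold the other stem cell markers detectably more often, and RNF43 had a lower level in them. Among 3CK epithelial cells thinned to 20000 UMIs, 114 had an ASCL2 UMI and 575 did not. SOX9 was found in 47.4% (37.9 to 56.9) of the former and 42.8% (38.7 to 46.9) of the latter, and EPHB2 in 11.4% and 9.22%. RNF43 was found in 17.5% (11.1 to 25.8) and 25.4% (21.9 to 29.2), ZNRF3 in 7.89% and 11.1%, and AXIN2 in 4.39% and 5.57%. All 5 pairs of intervals overlapped. The share of cells with an ASCL2 UMI grew with depth, so cells without one here may still express it. The summed RNF43 level was 9.65 CPM (22 UMIs) in the cells with ASCL2 and 20.2 CPM (232 UMIs) in the others, a difference that was not tested. LGR5, LRIG1, SMOC2 and OLFM4 were each in 0 of 114 cells with ASCL2, which allows a share of up to 2.63% by 3 counts and 3.18% by the Clopper-Pearson interval, and in 4 or 5 of the 575 others. MKI67, a proliferation marker, was in 7.02% and 4.70%.

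No gene had a correlation with ASCL2 above 0.28 across those 689 cells. By Pearson correlation of log(1 + UMIs), over 11209 genes with at least 5 CPM, the 8 highest were IFI35 (0.28), IDO1 (0.28), VAMP5 (0.27), CXCL10 (0.27), DYNLT1 (0.26), CXCL11 (0.26), PSMB9 (0.26) and FXYD5 (0.25). All 8 values are weak, and the cells share 1 library. Sparse ASCL2 counts, 0 UMIs in 575 of these cells and 1 in 86, limit how high any correlation can be. How closely other genes follow ASCL2 therefore cannot be read from these values. Of the stem cell and WNT genes with enough counts, EPHB2 had an r of 0.03 (rank 2962), SOX9 0.01 (rank 3883), ZNRF3 -0.04 (rank 6329) and RNF43 -0.08 (rank 8714). Most of the 8 were far higher in 3CK epithelium, such as IDO1 (0.131 and 552 CPM) and PSMB9 (2.47 and 631 CPM), while DYNLT1 (259 and 509 CPM) and FXYD5 (96.3 and 172 CPM) were within 2-fold.

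Other targets of WNT signalling split in the same epithelium. Of 19 listed, 16 reached 1 CPM, 5 were at least 2-fold higher in 3CK and 3 at least 2-fold lower, with a median log2 ratio of -0.12. Beside these and the further epithelial list counts stands the background of all genes tested, 8.48% higher and 12.1% lower, with a median of 0.01. The higher ones were the growth regulator MYC (4.79 and 37.4 CPM, log2 ratio 2.97), the hyaluronan receptor CD44 (55.9 and 253 CPM, 2.18), cyclin D1, CCND1 (142 and 479 CPM, 1.75), TNFRSF19 (1.09) and PROX1 (1.01). The lower ones were the WNT antagonist APCDD1 (7.08 and 1.53 CPM, -2.21), the R-spondin receptor LGR6 (-1.62) and the transcription factor SP5 (-1.37). In mesenchyme MYC was not higher in 3CK, at 33.3 and 25.2 CPM. APCDD1 stood at 53.4 and 47.5 CPM there (-0.17), and the part of mesenchymal RNA in its epithelial values was not tested.

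WNT ligands and receptors showed no common direction, and 6 of 9 secreted inhibitors and partners were at least 2-fold lower. Of 13 ligand and secretion genes tested, WNT7A (0.827 and 2.34 CPM) and WNT5B (4.78 and 12.1 CPM, log2 ratio 1.34) were at least 2-fold higher in 3CK epithelium. WNT2 (1.64 and 0.128 CPM, -3.68) and WNT6 (-2.19) were lower, and the carrier WLS stood at 21.9 and 17.0 CPM. WNT2 was far higher in mesenchyme (33.4 and 6.03 CPM), and the part of mesenchymal RNA in its epithelial values was not tested. Of 16 receptor and R-spondin genes, FZD8 was higher (6.83 and 14.7 CPM, 1.10) and LGR6 and FZD4 (22.3 and 9.34 CPM, -1.26) lower, with FZD5 at 95.8 and 77.3 CPM. Of 9 secreted inhibitors and their partners, 0 were at least 2-fold higher and 6 lower, beside 12.1% of all genes lower, with a median of -1.33. The 6 were FRZB (114 and 34.9 CPM, -1.71), SFRP5 (6.47 and 0.699 CPM, -3.21), WIF1, SOSTDC1, SFRP1 and KREMEN1. KREMEN2 was at 2.05 and 3.14 CPM (0.62).

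The machinery between receptor and nucleus differed least. Of 22 genes 0 were at least 2-fold higher and 2 lower (PYGO1 at 1.33 and 0.242 CPM, BCL9 at 9.41 and 4.35 CPM), with a median of -0.09. CTNNB1, beta-catenin, stood at 89.8 and 97.2 CPM, the kinase CSNK1A1 at 131 and 199 CPM, and BCL9L at 42.6 and 71.8 CPM (log2 ratio 0.75).

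Other crypt stem and progenitor markers went both ways. Of 16 tested 3 were at least 2-fold higher and 5 lower, beside 8.48% and 12.1% of all genes, with a median of -0.64. HOPX (4.19 and 0.571 CPM, log2 ratio -2.88), the water channel AQP1 (5.49 and 0.984 CPM, -2.48), PROM1 (139 and 48.5 CPM, -1.52), MSI1 and MEX3A were lower. CLCA4 (0.709 and 1.98 CPM, 1.48), NOX1 (1.81 and 4.56 CPM) and TNFRSF19 were higher, and CD24 stood at 1093 and 635.9 CPM. In mesenchyme HOPX stood at 18.0 and 5.59 CPM, and AQP1 at 43.3 and 105 CPM (1.28). The part of mesenchymal RNA in their epithelial values was not tested. Genes of fetal and injured epithelium split, with 5 of 18 higher and 4 lower. The EGF receptor ligands EREG (0.459 and 4.76 CPM, 3.37) and AREG (233 and 1232 CPM), with ANXA1, CCN1 and S100A6 (5631 and 11374 CPM, 1.01), were higher. LY6D (3.52 and 0.143 CPM, -4.62), ANXA10 (11.4 and 1.34 CPM, -3.09), KRT17 (7.85 and 1.04 CPM, -2.91) and IL33 were lower. KRT17 stood at 49.7 and 13.6 CPM in mesenchyme, and the part of mesenchymal RNA in its epithelial values was not tested.

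Pathways that oppose or direct the crypt programme gave mixed counts. Of 15 BMP genes 2 were higher, the BMP antagonists CHRD (1.92 and 12.8 CPM, log2 ratio 2.74) and GREM1, and 6 lower, among them NOG (1.09 and 0.257 CPM, -2.09) and the target ID2 (278 and 88.1 CPM, -1.66), while ID3 stood at 490 and 447 CPM. Of 11 NOTCH and secretory genes 0 were higher and 2 lower, HEY1 (1.21 and 0.456 CPM, -1.40) and NOTCH3, with HES1 at 78.7 and 70.7 CPM and SPDEF at 1.89 and 3.39 CPM (0.84). Over all 142 listed genes tested in epithelium, 17 were at least 2-fold higher and 35 lower, beside 8.48% and 12.1% of all genes, with a median of -0.18 beside 0.01.

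**Figure D5:**
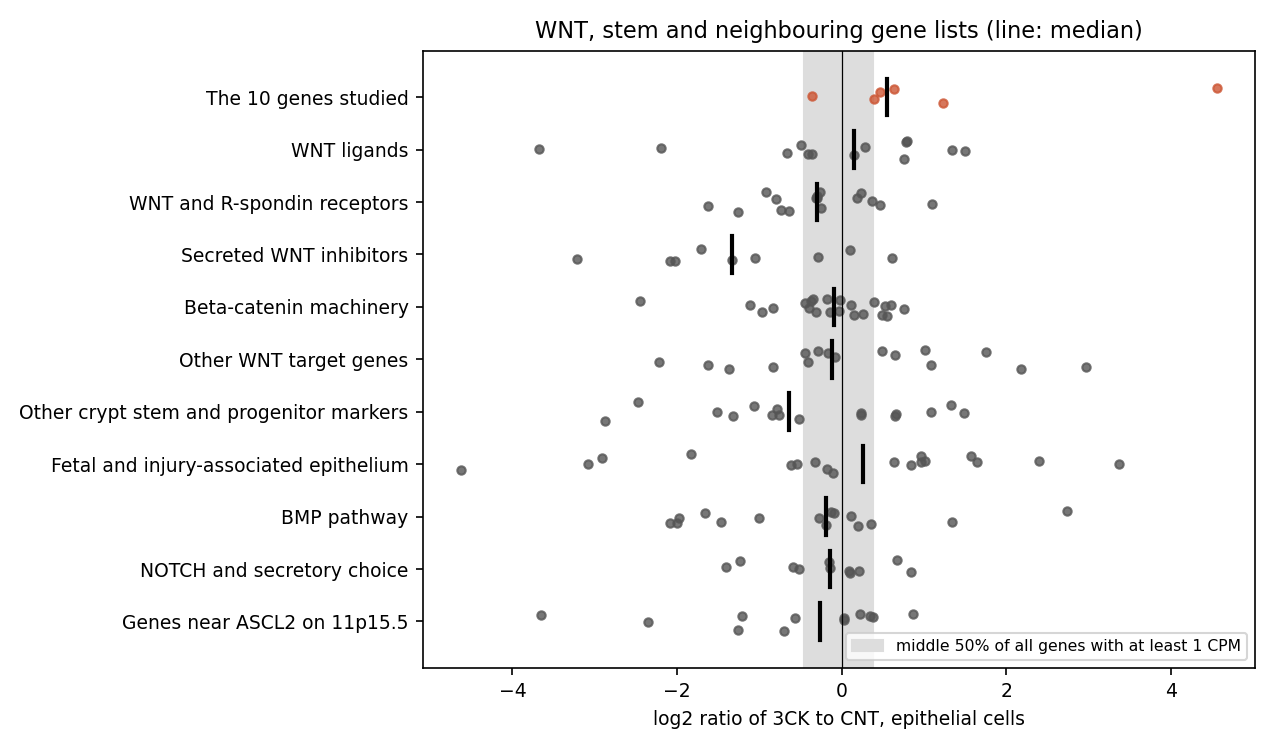
Ratio of 3CK to CNT in epithelial cells (x axis, log2) for the genes with at least 1 CPM of each list (rows), with the list's median as a vertical line and the middle 50% of all tested genes shaded (-0.45 to 0.38). The top row shows 6 of the 10 stem cell and WNT genes, with ASCL2 at 4.56. Secreted WNT inhibitors have the lowest median, -1.33.

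In mesenchyme, known as a source of WNT ligands for the crypt, other listed genes stood out. WNT5A (25.2 and 85.3 CPM, log2 ratio 1.76) and WNT5B were at least 2-fold higher in 3CK, and WNT2 (33.4 and 6.03 CPM, -2.47), WNT2B and WNT6 lower. Of the R-spondins, RSPO2 was lower (15.4 and 3.29 CPM, -2.22) and RSPO3 stood at 35.6 and 55.0 CPM. Of 10 secreted WNT inhibitors 3 were higher and 1 lower, with a median of 0.18. The BMP antagonist GREM1 was higher (4.94 and 34.9 CPM, 2.82), while BMP5 (5.95 and 0.548 CPM, -3.44) was lower. SPP1 (46.8 and 1.21 CPM, -5.28) and KRT7 (117 and 19.2 CPM, -2.61) were also lower there. Over 136 listed genes tested in mesenchyme, 12 were higher and 27 lower, beside 6.05% and 16.7% of all genes, with a median of -0.38 beside -0.21.

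Listed neighbours of ASCL2 that reached 1 CPM did not share its difference. ASCL2 lies in the imprinted region of chromosome 11, and of 16 listed neighbours found, 12 reached 1 CPM in epithelium. Of these 0 were at least 2-fold higher in 3CK and 4 lower: the noncoding RNA H19 (226 and 18.1 CPM, log2 ratio -3.65), the cell cycle inhibitor CDKN1C (565 and 111 CPM, -2.35), IGF2 and KCNQ1OT1 (32.4 and 14.1 CPM, -1.21). C11orf21, 25.04 kb away, stood at 0.0394 and 0.0428 CPM, and CD81, 105.6 kb away, at 342 and 399.9 CPM (0.23). Of those 12, the highest ratio was that of PHLDA2 (175 and 320 CPM, 0.87), 657.7 kb away. H19 was also lower in 3CK mesenchyme (3127 and 1440 CPM) and KCNQ1OT1 too (95.2 and 19.5 CPM, -2.29). IGF2 stood at 70.9 and 81.0 CPM in mesenchyme (0.19), far above its epithelial 2.32 and 0.970 CPM. The part of mesenchymal RNA in the epithelial values of H19, IGF2 and KCNQ1OT1 was not tested.

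Several of these genes overlap another annotated gene in GENCODE. On the same strand LGR5 overlaps a listed noncoding RNA and ZNRF3 overlaps ZNRF3-IT1, so the counting could split their reads. ASCL2, OLFM4 and SMOC2 overlap no other annotated gene. On the opposite strand SOX9 and RNF43 meet antisense RNAs, and LGR5 and LRIG1 meet TSPAN8 and SLC25A26.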

How the data were processed

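Colon organoids of 1 human induced pluripotent stem cell line were measured by droplet single-cell RNA sequencing in 2 libraries, CNT and 3CK, 1 per condition. The authors' deposited matrices hold raw UMI counts for every gene in every barcode, without scaling, made with Cell Ranger 7.1.0 on GRCh38, per the submitters' processing notes. The annotation version is not given in the sources used here, and coordinates come from GENCODE (GRCh38), matched by gene ID. UMI counting removes amplification copies, and free RNA was not corrected for.

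Barcodes with at least 500 genes and at most 20% mitochondrial UMIs were kept. Doublets were scored with Scrublet (scanpy 1.11.5) and the highest scores removed at 0.8% per 1000 barcodes, 52 in CNT and 16 in 3CK. UMIs were summed per library and class, since cells are not replicates, and divided by the class total (CPM). Sums carry exact Poisson intervals, shares Clopper-Pearson intervals, and ratios an interval from the exact binomial limits on how pooled UMIs divide between libraries (scipy 1.17.1). A gene was counted as higher or lower at 2-fold or more if the higher library reached 1 CPM. A class total gave 3 UMIs a value of 0.0394 CPM (CNT) and 0.0428 CPM (3CK) in epithelium and 0.153 and 0.329 CPM in mesenchyme. Ratios and intervals were tested on data simulated with Poisson counting error only. Real UMIs were partly concentrated in a few cells, which the simulation lacked.

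The genes, gene lists and ranges were chosen with earlier results of these data known. The text names all 10 genes and, of each list, the highest in CPM, the largest and smallest ratio in epithelium, and genes at least 4-fold different with at least 5 CPM. Other listed genes, PIGR and LCN2 included, were named after their values were seen. Some listed genes are not reported here. Alternatives covered cell filters, doublet removal, depth, scaling (edgeR 4.0.16 TMM factors, or totals without mitochondrial, ribosomal and the 50 most abundant genes), equal weight per cell, class definitions, cycling cells and thinning.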

Additional observations from a re-analysis of the deposited data

How the results depend on the processing

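Across 9 to 12 alternative settings per gene and class, 281 of 319 log2 ratios moved by less than their counting interval. Another 37 moved more, and 1 was counted as reversed. That 1 was LGR5 in mesenchymal cells without EPCAM UMIs at -0.99, a setting added after seeing the data. Sign changes that were not counted as reversed also occurred. The mesenchymal SOX9 ratio kept its sign under 7 of 11 settings, and the OLFM4 ratio over all kept cells under 5 of 9. In epithelium AXIN2 and EPHB2 each kept their sign under 11 of 12. The ASCL2 log2 ratio in epithelium lay between 4.36 and 4.59 under all 12. With each cell weighted equally it was 3.55 over all kept cells and 1.59 in mesenchyme, and 1 gene in place of 3 was at least 2-fold higher over all kept cells, 1 higher and 1 lower in epithelium, and 2 lower in mesenchyme. The count of genes at least 2-fold lower over all kept cells was 0 with the stricter cell filter, with TMM factors and with a minimum of 10 CPM. It was 1 in epithelium with no CPM minimum, and in mesenchyme 2 with at least 20 collagen UMIs per 10000. With a minimum of 10 CPM, mesenchyme had 1 higher and 0 lower. Without the epithelial cells whose collagen reached the mesenchymal minimum, EPHB2 passed 2-fold higher in epithelium (1.04). The share of cells with an ASCL2 UMI grew with depth: thinned to 20000 UMIs and not thinned it was 0.738% and 1.45% in CNT epithelium, 16.5% and 29.2% in 3CK epithelium, and 14.6% and 20.97% in 3CK mesenchyme. TMM factors shifted all mesenchymal log2 ratios by 0.18, and totals without mitochondrial, ribosomal and abundant genes shifted the epithelial ones by -0.12. The cause of these moves was not tested. No paired analysis was possible because each group is 1 library. Depth limits LGR5, OLFM4, SMOC2 and LRIG1 in epithelium and RNF43 in mesenchyme.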
